A study of Mus musculus with 4 samples.

Results

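This account follows 9 genes of the complement system through single-cell RNA-Seq of mouse small intestinal lamina propria. The genes are C1qa, C1qb, C1qc, C3, C4b, Cfd, Serping1, C1s1 and C1ra, out of 31950 gene IDs measured in both gene expression libraries. They were taken as a named list and matched by Ensembl ID. Their levels were read in barcodes that clustered as fibroblasts, smooth muscle, endothelium and macrophages. Cells came from A20ZF7 mice, which carry homozygous knock-in point mutations in zinc finger 7 of A20, and from wild-type (WT) mice, all aged 12 weeks. A20 is a ubiquitin-editing inhibitor of NF-kappaB signaling, and its zinc finger 7 binds linear (M1) ubiquitin. The question put by the design is how gene expression of lamina propria cells differs between these genotypes.

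Each genotype is 1 library, made from small intestinal lamina propria of 2 pooled mice after selection meant to enrich T cells and innate lymphocytes, so stromal cells and macrophages are those that came through that selection. With 1 library per genotype no test between genotypes was possible, and all intervals given are exact 95% intervals that cover counting error only. The mice of the WT pool can be told apart by hashtags 7 and 8, those of the A20ZF7 pool cannot, and the only spread between animals is therefore that between the WT mice. The A20ZF7 library was the deeper, with 36876 barcodes kept against 19883 and a median of 952 unique molecular identifiers (UMIs) per barcode against 882. The kept libraries shared 1033 barcode sequences, of which 104 were fibroblast-like in both, 7 smooth muscle-like, 2 endothelial-like and 3 macrophage-like.

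Complement is a cascade of plasma proteins that tags microbes and damaged cells for removal. C1q, built of chains encoded by C1qa, C1qb and C1qc, recognizes the target. Of the attached proteases C1r and C1s, encoded by C1ra and C1s1, C1r then activates C1s, which cleaves C4 and C2. C3 is where all routes meet, factor D (Cfd) cleaves factor B in the alternative route, and the C1 inhibitor (Serping1) blocks C1r and C1s. In most tissues C1q is made by macrophages, whereas fibroblasts are a known local source of C3, C4, C1r, C1s and C1 inhibitor.

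The chromosomal positions are from the RefSeq annotation of GRCm38.p6, the mm10 build the files use. The C1q genes lie next to each other on chromosome 4, with C1qb at chr4:136880126-136886200, C1qc at chr4:136889801-136892936 and C1qa at chr4:136895916-136898844. C1ra (chr6:124512621-124523440) and C1s1 (chr6:124530344-124542392) are also neighbors, with 6903 bases between them. C3 (chr17:57203967-57228136) and C4b (chr17:34728139-34743902) share a chromosome, and Cfd (chr10:79890853-79892655) and Serping1 (chr2:84765360-84775444) stand alone. The RefSeq promoter table held 6 of the 9 genes, all but C1qa, C4b and Serping1.

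The 250 bases before an annotated transcript start are shown for C3, which differed most between genotypes among the fibroblast genes, and for the C1q genes in the table, which were read together in 1 cell class. They are given 5′ to 3′ on the strand of the gene, at chr17:57228137-57228386 (C3), chr4:136886201-136886450 (C1qb) and chr4:136892915-136893164 (C1qc), all on the minus strand. The C1qc window precedes a transcript start that lies inside the annotated gene, so its last bases fall within the gene. Capitals mark matches to 5 motifs searched on both strands, namely the C/EBP letters TTGCNNAA, the ETS letters GGAAGT, the STAT letters TTCNNNGAA, the interferon response motif and the kappa B motif.
C3: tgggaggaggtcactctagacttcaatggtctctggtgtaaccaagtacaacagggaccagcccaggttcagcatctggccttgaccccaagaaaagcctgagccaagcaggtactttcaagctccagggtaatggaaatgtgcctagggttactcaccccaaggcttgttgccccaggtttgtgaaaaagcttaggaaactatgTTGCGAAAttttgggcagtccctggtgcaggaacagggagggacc
C1qb: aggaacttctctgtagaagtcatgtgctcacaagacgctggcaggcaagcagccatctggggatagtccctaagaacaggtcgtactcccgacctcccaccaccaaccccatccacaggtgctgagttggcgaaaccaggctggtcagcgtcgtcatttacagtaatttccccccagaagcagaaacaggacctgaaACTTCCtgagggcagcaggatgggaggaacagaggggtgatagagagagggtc
C1qc: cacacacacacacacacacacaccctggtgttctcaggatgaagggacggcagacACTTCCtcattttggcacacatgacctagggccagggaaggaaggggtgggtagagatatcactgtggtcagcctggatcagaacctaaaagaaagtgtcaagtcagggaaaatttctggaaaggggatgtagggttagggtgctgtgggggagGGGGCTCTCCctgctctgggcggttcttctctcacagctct
The C3 stretch held the C/EBP letters at positions -45 to -38, counted back from the start, as did 9.56% of all 32851 promoters in the table over the same length. Both C1q stretches held the ETS letters on the opposite strand, at -53 to -48 in C1qb and at -195 to -190 in C1qc, and these letters occurred in 19.7% of all promoters. C1qc also held a kappa B match at -41 to -32, a motif found in 3.899% of all promoters. The STAT letters (7.02% of all promoters) and the interferon response motif (2.98%) were in none of the 3 windows. These are matches of letters and not shown binding sites, and the motifs do not overlap one another here.

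Of 26 clusters, 10 were assigned to the 4 classes from marker lists with the complement genes left out of the clustering. The fibroblast-like class held 6073 WT and 11584 A20ZF7 barcodes in 4 clusters, the smooth muscle-like class 2030 and 1274 in 2, the endothelial-like class 605 and 1493 in 3, and the macrophage-like class 348 and 1190 in 1. Detected in their own class in both libraries were 8 of 8 fibroblast, 9 of 9 smooth muscle, 10 of 10 endothelial and 11 of 11 macrophage markers, although the macrophage-like class was mixed, as its subclusters below show. The classes were named from these same lists, so this detection is no separate check of the names. The markers of each class summed to less in A20ZF7 than in WT, by a ratio of 0.727 for fibroblasts (19069 to 13859 CPM, the UMIs of a gene scaled to a common total), 0.571 for smooth muscle, 0.534 for endothelium and 0.639 for macrophages. Lymphocyte RNA moved the other way. Cd3e, a chain of the T cell receptor complex, was read at 77.1 CPM in WT and 259 CPM in A20ZF7 fibroblast-like barcodes. Removing every barcode with a UMI of Cd3e, Cd3d, Cd3g, Trac, Cd79a, Cd79b, Jchain or Mzb1 left the fibroblast ratio of C3 at 2.64, against 2.20 with all barcodes.

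**Figure D1:**
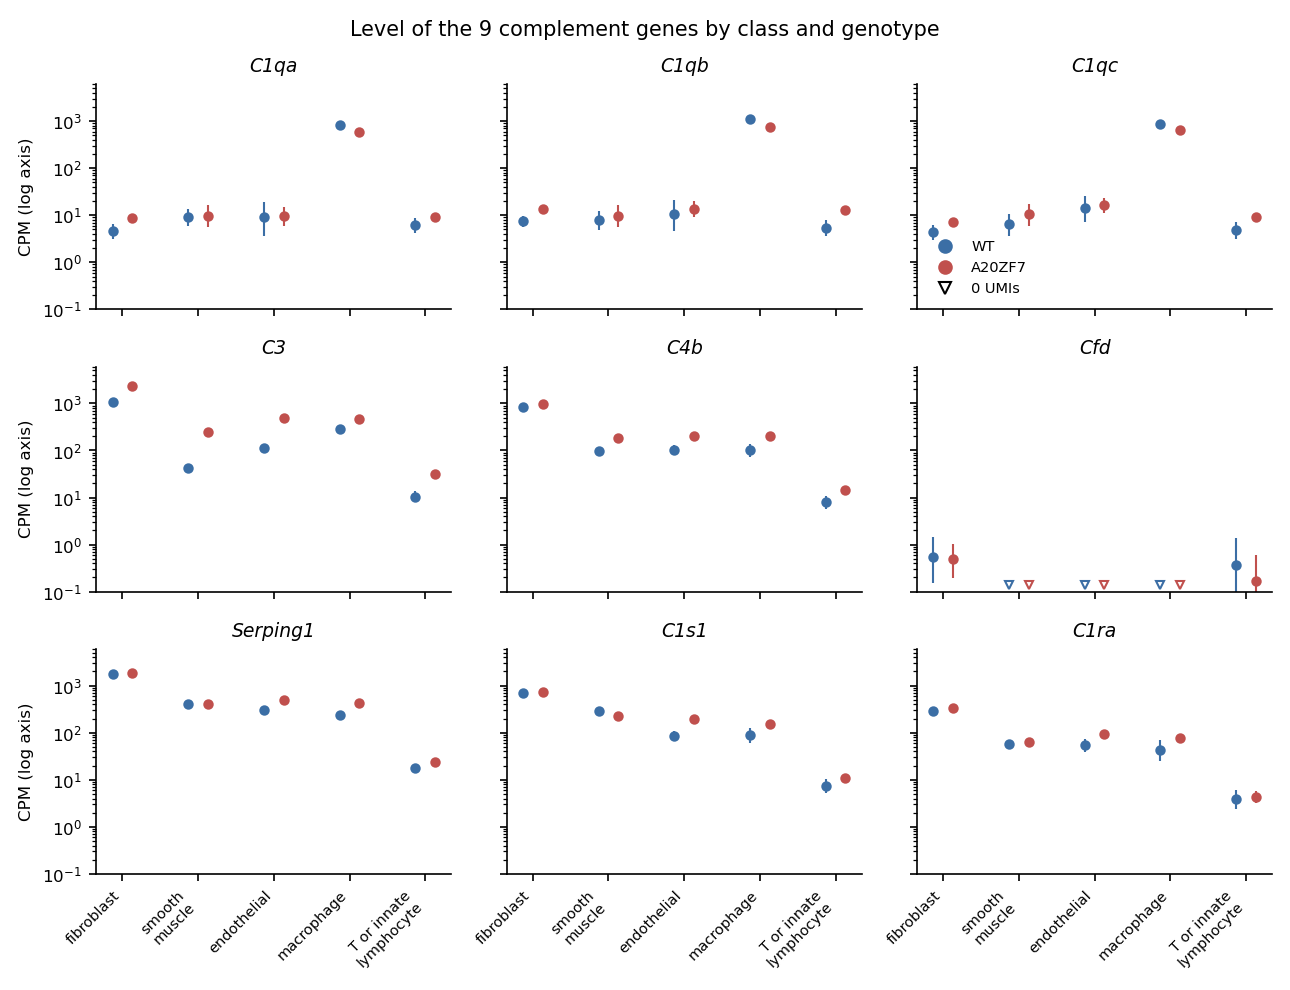
Level of each of the 9 genes (CPM, log axis) in the 4 classes and in T or innate lymphocyte barcodes, in WT (blue) and A20ZF7 (red). Points are 1 library each, bars are exact 95% Poisson intervals and open triangles mark 0 UMIs. The C1q chains stand at 592 to 1101 CPM in macrophage-like barcodes and at 16.2 CPM or less elsewhere, whereas C3, C4b, Serping1, C1s1 and C1ra are highest in fibroblast-like barcodes in both genotypes.

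The recognition subunit was read chiefly in macrophage-like barcodes, the class highest for each C1q chain in both libraries. In macrophage-like barcodes C1qa was read at 841 CPM (WT) and 592 CPM (A20ZF7), C1qb at 1101 and 764 CPM, and C1qc at 876 and 642 CPM. In fibroblast-like, smooth muscle-like and endothelial-like barcodes the chains lay between 4.32 and 16.2 CPM. In T or innate lymphocyte barcodes, which should lack them, a UMI of any C1q chain was found in 1.10% of WT and 2.58% of A20ZF7 barcodes (median depth 685.5 and 775.0 UMIs). Fibroblast-like barcodes showed 1.50% and 3.18% (median depth 1055 and 1052 UMIs), or 0.675% and 1.59% when each barcode was thinned to 500 UMIs against 0.823% and 1.64% in the lymphocytes. The thinned shares in fibroblast-like and smooth muscle-like barcodes (0.788% and 1.18%) were at or below this background in both libraries. Those of endothelial-like barcodes, 1.49% and 2.08%, were above it with overlapping intervals. In macrophage-like barcodes the shares were 67.5% (62.3% to 72.4%) and 61.7% (58.9% to 64.5%), or 54.6% and 48.5% after thinning.

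The C1q chains were lower in A20ZF7 by CPM macrophage-like barcodes, and by like ratios, 0.704 (0.621 to 0.7995) for C1qa, 0.694 (0.622 to 0.776) for C1qb and 0.733 (0.649 to 0.829) for C1qc. None of the 3 passed a 2-fold difference, which 2.6% of the 6731 genes with at least 20 UMIs and a mean of 20 CPM passed downward in this class. The macrophage markers moved with them. Csf1r, the receptor for macrophage colony-stimulating factor, went from 366 to 236 CPM, a ratio of 0.644 (0.531 to 0.784). Per UMI of the 11 macrophage markers the direction turned, with a ratio of the summed chains of 1.11 (1.04 to 1.19), and it also turned to 1.11 in the 100 WT and 200 A20ZF7 barcodes gated on their marker UMIs.

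The WT mice spanned part of the gap. The summed chains stood at 2255 CPM (2018 to 2512) in the mouse of hashtag 7, 2918 CPM (2645 to 3212) in the mouse of hashtag 8 and 3458 CPM (3114 to 3830.5) in WT barcodes with no hashtag call, against 1998 CPM in A20ZF7. The lowest of the WT values lay close above the A20ZF7 value. Between the WT mice C1qa differed most, at 601 and 1019 CPM, while C1qb at 964 and 1054 CPM had overlapping intervals.

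**Figure D2:**
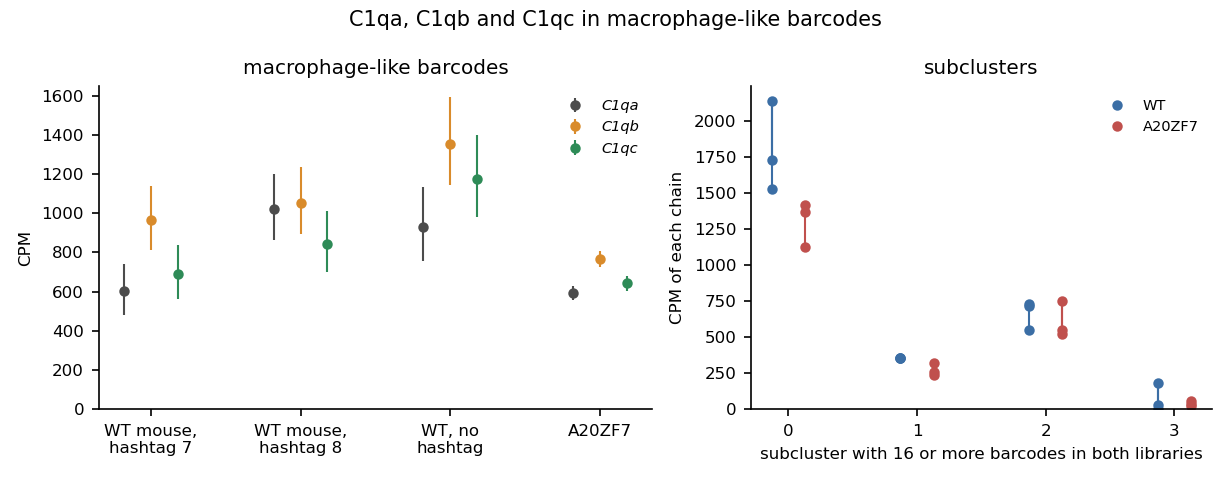
C1qa, C1qb and C1qc in macrophage-like barcodes. Left, CPM by WT mouse and in A20ZF7 with exact 95% Poisson intervals. Right, CPM of the 3 chains joined by a line in each of the 4 larger subclusters. The chains are highest in subcluster 0 in both genotypes and run from 601 CPM to 1353 CPM among the WT groups on the left.

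Within the class the chains followed the subclusters. Subcluster 0 carried C1qb at 2135 CPM in WT and 1419 CPM in A20ZF7, subcluster 1 at 351 and 318 CPM, and subcluster 2 at 726 and 749 CPM. Subcluster 3 carried it at 180.3 and 20.9 CPM, the WT value from 16 barcodes. Markers of other cell types moved with these levels. Subcluster 0 had the macrophage markers at 9818 and 6740 CPM, whereas subcluster 1, with Il12rb2 and Cd40lg among its leading genes, had them at 1487 and 1517 CPM and the T or innate lymphocyte markers at 3325 and 3008 CPM. The leading genes of subcluster 0 were Lyz1, S100a9, Ctrb1, Hbb-bs and S100a8, none of them on the macrophage marker list. Subcluster 2 held fibroblast markers at 11056 and 7421 CPM, against 123 and 137 CPM in subcluster 0. Subcluster 3 had Ccr7, Fscn1 and Ccl22 among its leading genes, genes of mature dendritic cells, and the small subcluster 5 had smooth muscle genes. Subcluster 4 was led by immunoglobulin variable genes, Ube2c and Hist1h2ap. The low C1q of subclusters 1 and 3 is therefore not shown to be variation among macrophages. The makeup of the class differed between the libraries, with subcluster 1 at 43.4% of WT and 22.9% of A20ZF7 barcodes and subcluster 2 at 13.5% and 25.4%. In the 3 subclusters highest in C1q, which were 0, 4 and 5, the ratio of the summed chains was 0.680. They were picked by the level of these same chains, and subclusters 4 and 5 held only 1 and 8 WT barcodes.

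C3, the hub of the cascade, differed more between genotypes than the other 4 members with enough counts in fibroblast-like barcodes. Fibroblast-like barcodes held 7749 C3 UMIs in WT and 33576 in A20ZF7, or 1081 and 2373 CPM, a ratio of 2.20 (2.14 to 2.25). Of the 5 members with enough counts, C3 alone passed a 2-fold difference there, and 4.48% of 7258 genes passed it upward and 1.57% downward. C3 ranked 264 of these genes by ratio, with 96.4% of them lower. Saa3, which encodes an acute-phase protein, went from 13.1 to 379.6 CPM. More barcodes held C3 and each held more. C3 was detected in 44.1% of fibroblast-like barcodes in WT and in 75.6% in A20ZF7, against 0.661% and 2.32% of lymphocytes, and 30.7% and 58.2% remained after thinning to 500 UMIs. Barcodes with C3 carried a mean of 2.89 and 3.83 UMIs, and 7.90% and 23.2% of all fibroblast-like barcodes carried 5 or more.

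The fibroblast clusters differed widely in C3, and each stood higher in A20ZF7. The cluster led by Mfap5 and Igfbp6, adventitial fibroblast genes, had the highest level, 2582 CPM in WT and 4084 CPM in A20ZF7 (ratio 1.58, 1.52 to 1.64). The cluster led by Mfap4 and Mgp went from 1237 to 2482 CPM (ratio 2.01, 1.94 to 2.08). The cluster led by Mmp10 and Saa3 had the steepest ratio, 4.45 (4.09 to 4.85), from 319 to 1419.7 CPM. The cluster led by Sox6 and Pdgfra, genes of subepithelial fibroblasts, went from 108 to 428 CPM (ratio 3.96, 3.23 to 4.89). The order of the clusters was the same in both genotypes, with the Mfap5 cluster first and the Sox6 cluster last, and no neighboring intervals overlapped. C3 was detected in 18.97% of the Mmp10 cluster in WT and in 65.6% in A20ZF7, and in 4.37% and 20.4% of the Sox6 cluster.

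The WT mice were close to each other in C3. Across all fibroblast-like barcodes C3 stood at 904 CPM (854 to 956) in the mouse of hashtag 7 and at 874 CPM (829 to 922) in that of hashtag 8, a difference within counting error. WT barcodes with no hashtag call, 4072 of the 6073, stood at 1213 CPM. In the Mmp10 cluster the WT groups stood at 219, 291 and 366 CPM against 1419.7 CPM in A20ZF7. In the Mfap5 cluster they stood at 2425, 2140.0 and 2763 CPM against 4084 CPM. In all 4 clusters the A20ZF7 level lay above every WT group, with no overlap of intervals. As the A20ZF7 mice cannot be separated, it is unknown whether both carried the higher level.

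**Figure D3:**
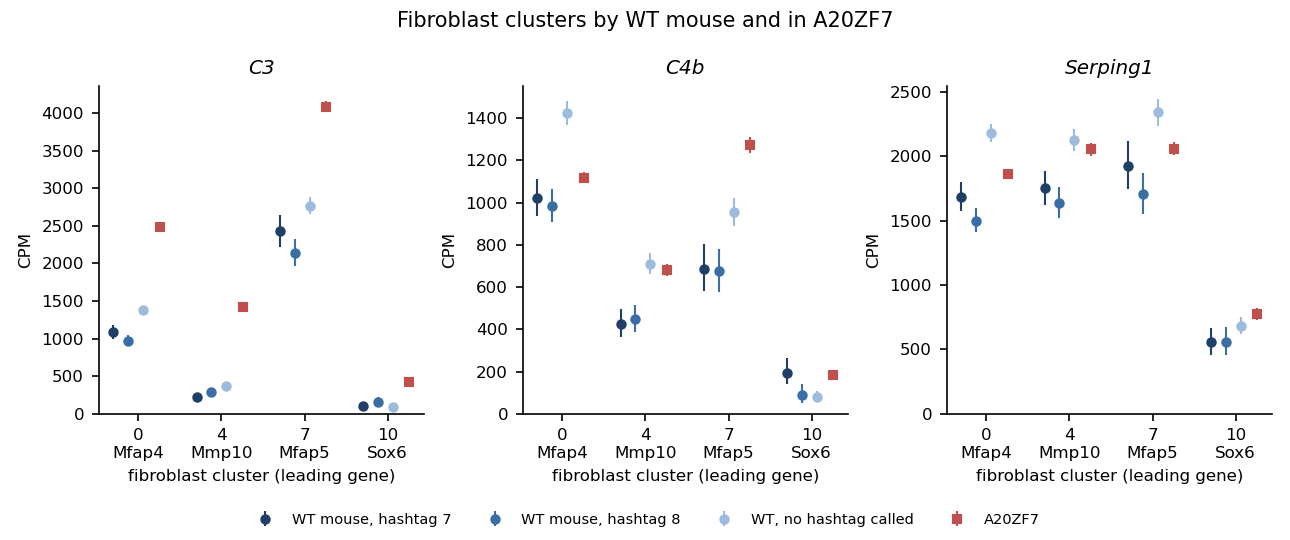
C3, C4b and Serping1 (CPM) in the 4 fibroblast clusters, named by number and a leading gene, for the WT mice of hashtags 7 and 8, WT barcodes without a hashtag call and A20ZF7 (red squares). Bars are exact 95% Poisson intervals. C3 in A20ZF7 lies above every WT group in each cluster, at 1419.7 CPM against 219 to 366 CPM in the Mmp10 cluster, whereas Serping1 in A20ZF7 lies among the WT groups in 3 of 4 clusters.

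C4b, the classical pathway partner of C3, was read at 839.7 CPM in WT and 951 CPM in A20ZF7 fibroblast-like barcodes, a ratio of 1.13 (1.10 to 1.17). Its direction depended on the cluster. It was lower in A20ZF7 in the Mfap4 cluster (1251 and 1117 CPM, ratio 0.893, 0.858 to 0.929) and higher in the Mfap5 cluster (854 and 1272 CPM, ratio 1.49, 1.39 to 1.59) and the Sox6 cluster (106 and 185 CPM, ratio 1.74, 1.39 to 2.19). The WT mice were alike at 665 and 668 CPM, but WT barcodes without a hashtag call stood at 959 CPM, level with A20ZF7 within counting error.

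The proteases and their inhibitor were nearly level in CPM in fibroblast-like barcodes. Serping1 was read at 1790.5 CPM (WT) and 1828 CPM (A20ZF7), a ratio of 1.02 (0.999 to 1.04), C1s1 at 709 and 739 CPM (ratio 1.04, 1.01 to 1.08), and C1ra at 292 and 341 CPM (ratio 1.17, 1.11 to 1.23). These gaps were smaller than those among the WT groups, which include barcodes with no hashtag call, not a separate animal. Serping1, for instance, ran from 1459 CPM to 1984 CPM among these groups, and C1ra from 232 to 330.5 CPM. Between the WT mice alone (hashtag 8 over hashtag 7) the ratio was 0.932 (0.878 to 0.989) for Serping1, 0.924 (0.840 to 1.02) for C1s1 and 1.04 (0.890 to 1.21) for C1ra. The C1ra ratio of 1.17 between genotypes lay further from 1 than that between the WT mice. Between clusters the genes kept to a narrower span than C3. C1s1 in WT ran from 621 CPM in the Mmp10 cluster to 881 CPM in the Mfap5 cluster, and Serping1 was 635 CPM in the Sox6 cluster and 1933 CPM to 2144 CPM in the others. Set against the fibroblast markers, which were lower in CPM in A20ZF7, all 5 genes were higher, with a ratio of 3.02 for C3, 1.61 for C1ra, 1.56 for C4b, 1.43 for C1s1 and 1.404 for Serping1. Dividing by the same marker sum keeps the order of the genes, so C3 had the highest ratio of the 5 on this scale too. C4b has a close paralog, C4a, and C1ra and C1s1 have C1rb and C1s2, which mouse counting can confuse. In WT and A20ZF7 fibroblast-like barcodes C4a was read at 2.79 and 1.55 CPM, C1rb at 0.279 and 0.707 CPM and C1s2 at 0.418 and 1.91 CPM.

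**Figure D4:**
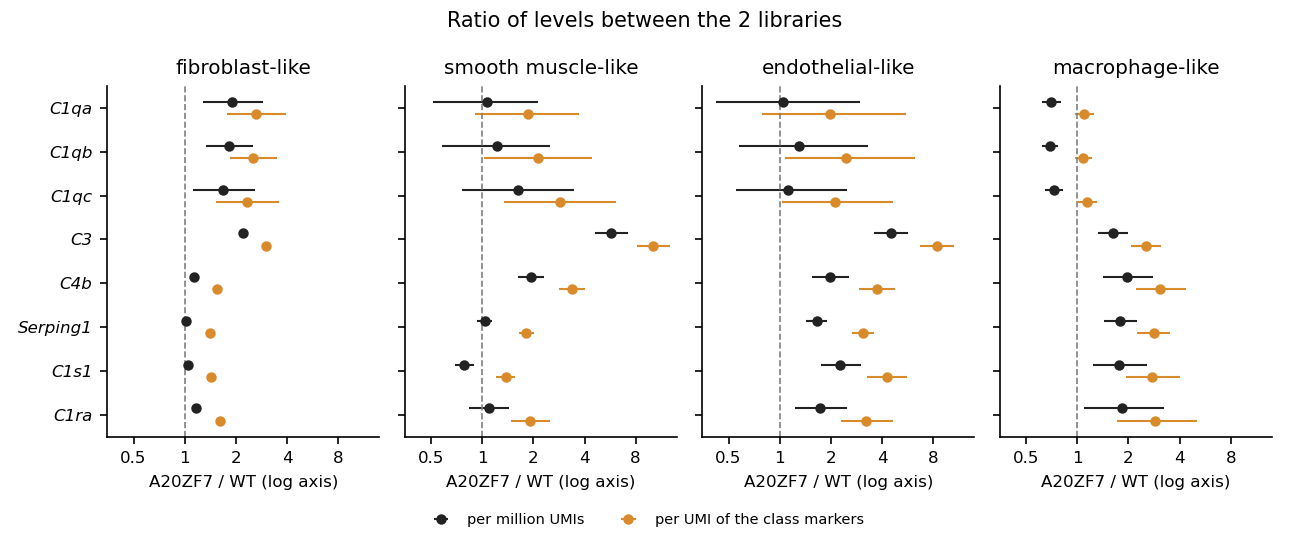
A20ZF7-to-WT ratio (log axis) of 8 genes in the 4 classes, in CPM (black) and per UMI of the markers of the class (orange), with exact 95% intervals. Cfd had too few UMIs to plot. C3 lies above 1 in each class on both scales, at 2.20 and 3.02 in fibroblasts, whereas the C1q chains in macrophages change sides, from 0.694 to 0.733 in CPM to 1.09 to 1.15 per marker UMI. Marker sums were lower in A20ZF7 in each class, so a gene above 1 in CPM must lie above 1 per marker UMI too.

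Cfd was at or near 0 in every class. Fibroblast-like barcodes held 4 UMIs in WT and 7 in A20ZF7, and smooth muscle-like, endothelial-like and macrophage-like barcodes held 0. A count of 0, taken as up to 3 UMIs, allowed 1.21 and 1.97 CPM in smooth muscle, 3.93 and 1.52 CPM in endothelium and 7.58 and 1.78 CPM in macrophages. Factor D mRNA was therefore not detectable in these classes at this depth. Of the 299 Cfd UMIs in both libraries, 281 (94.0%) lay in 3 A20ZF7 barcodes outside the 4 classes, with 162, 94 and 25 UMIs. These barcodes also held 153, 62 and 101 UMIs of Fabp4 and 13, 6 and 2 of Adipoq, which are adipocyte genes.

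WT smooth muscle-like barcodes read Serping1 at 398 CPM, C1s1 at 291 CPM and C1ra at 56.8 CPM, all above C3 at 41.9 CPM. In A20ZF7 C3 at 241 CPM stood below Serping1 (413 CPM) but above C1s1 (229 CPM) and C1ra (62.3 CPM). In the cluster led by Notch3, a receptor of mural cells, and Mustn1, Serping1 was read at 370.1 and 263 CPM (ratio 0.712, 0.614 to 0.823), C1s1 at 287 and 152 CPM (ratio 0.528, 0.437 to 0.635) and C1ra at 48.6 and 39.7 CPM, with an interval that included 1. C3 stood at 10.3 and 104 CPM and C4b at 20.6 and 57.98 CPM. Over the whole class the smooth muscle markers were lower too, with a ratio of their sum of 0.571. Per marker UMI of the class the ratio was 1.82 for Serping1 and 1.38 for C1s1. The other smooth muscle cluster read Serping1 at 465 and 684 CPM (ratio 1.47) and C1s1 at 301 and 370 CPM (ratio 1.23). C3 stood there at 117 and 491 CPM. Smooth muscle-like barcodes as a whole read 41.9 and 241 CPM of C3, a ratio of 5.76 (4.63 to 7.24). The fibroblast gene Dcn stood there at 7.12% of its fibroblast level in WT and 12.9% in A20ZF7, and these shares of fibroblast C3 come to 76.9 and 306 CPM, more than was read. That depends on the marker, as the fibroblast markers there ran from 3.62% to 18.1% in WT and from 8.02% to 20.5% in A20ZF7. C3 stood at 3.87% and 10.2% of its fibroblast level, within these ranges. C3 alone of 5 members passed 2-fold upward, as did 7.18% of 7075 genes, and none passed downward, as 2.52% did. The WT mice stood at 196 and 263 CPM of C1s1, with barcodes without a call at 321 CPM, so the A20ZF7 value of 229 CPM for the whole class lay among them.

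Endothelial-like barcodes read higher in A20ZF7 for each of the 5 genes. C3 went from 111 to 499.97 CPM (ratio 4.49, 3.59 to 5.67), C1s1 from 86.5 to 197 CPM, C4b from 104 to 206 CPM, C1ra from 53.7 to 92.7 CPM and Serping1 from 301 to 496 CPM. C3 and C1s1 passed 2-fold, which 5.53% of 7161 genes did upward. Macrophage-like barcodes read the same genes higher too, with C3 at 288 and 464 CPM and Serping1 at 235 and 422 CPM. In macrophage-like barcodes with no Dcn UMI the direction turned for C3 (ratio 0.293) and C1ra (0.522). The C3 value came from 56 WT and 55 A20ZF7 UMIs, and 1 WT barcode held 42 of the 56. The C1ra value came from 4 and 7 UMIs, with an interval of 0.133 to 2.43. With the marker gate the direction turned for C3 (0.413). Over all macrophage-like barcodes none of the 5 genes passed 2-fold upward, which 3.45% of all genes tested did.

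Fibroblast RNA was present in these classes, and it moved with the result. Dcn, encoding the fibroblast proteoglycan decorin, stood in endothelial-like barcodes at 13.7% of its fibroblast level in WT and 21.0% in A20ZF7, and in macrophage-like barcodes at 10.5% and 18.6%. Multiplying the fibroblast level of a gene by that share gave an amount to set beside the level read. The amount depends on the marker, since the fibroblast markers in WT endothelial-like barcodes ran from 7.03% to 13.7% of their fibroblast level, with Dcn the highest, and in A20ZF7 from 18.5% to 23.4%. For C3 in endothelial-like barcodes it gave 148 CPM in WT and 498 CPM in A20ZF7, against 111 and 499.97 CPM read. In macrophage-like barcodes it gave 113 CPM in WT, where 288 CPM were read, and 442 CPM in A20ZF7 against 464 CPM. The plasma cell cluster read 39.2 and 278 CPM where the Dcn share gave 41.8 and 275 CPM. In T or innate lymphocyte barcodes 10.5 and 31.3 CPM were read and 9.95 and 31.5 CPM were given by the share. In the Notch3 smooth muscle cluster C3 was read at 0.928 times the level the Dcn share gave in WT and 1.52 times in A20ZF7. Serping1 was read at 20.1 times and C1s1 at 39.5 times that level in WT, and at 5.02 and 7.14 times in A20ZF7. These multiples shrink with other markers, because Dcn was the lowest in WT at 1.03% and the highest marker stood at 11.1%. Serping1 at 20.7%, C1s1 at 40.5% and C1ra at 16.6% of the fibroblast level were above that highest share too, as they were in A20ZF7 at 14.4%, 20.5% and 11.6% against 8.80%.

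**Figure D5:**
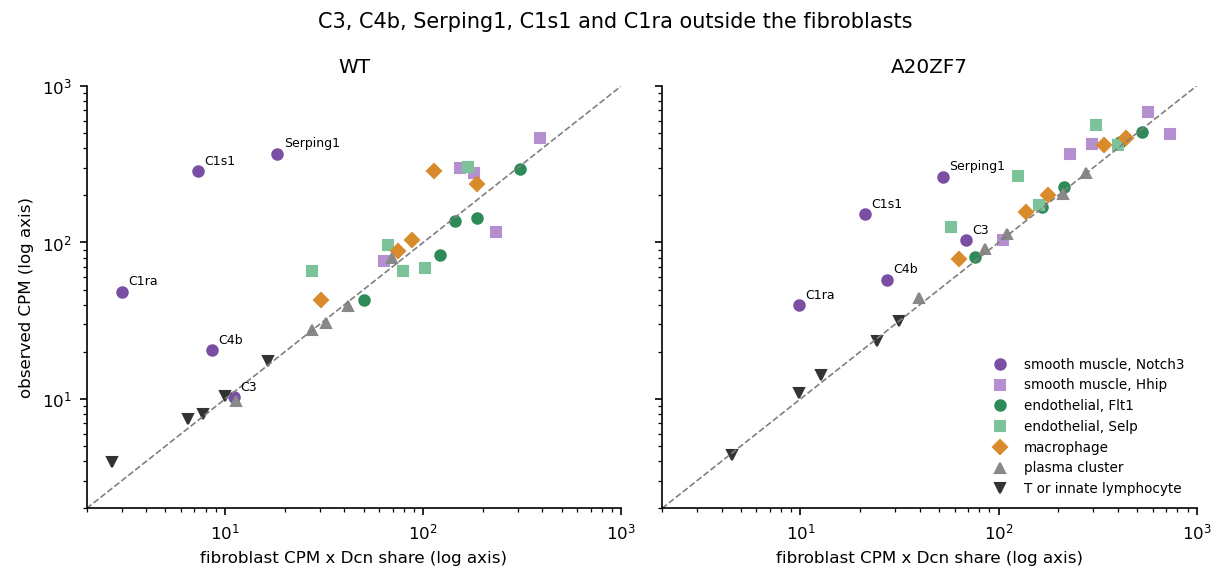
Level read (CPM, log axis) of C3, C4b, Serping1, C1s1 and C1ra in classes and clusters other than fibroblasts against the fibroblast level times the Dcn share (CPM, log axis), in WT (left) and A20ZF7 (right). The dashed line marks equal values and the genes are named for the Notch3 smooth muscle cluster. Lymphocytes, plasma cells and Flt1 endothelium lie near the line, and C1s1, Serping1 and C1ra of the Notch3 cluster lie above it, at 39.5, 20.1 and 16.2 times in WT by Dcn, the lowest of the fibroblast markers there.

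In A20ZF7 most C3 of endothelial-like and macrophage-like barcodes sat in barcodes that also held Dcn. In endothelial-like barcodes 92.4% of the A20ZF7 C3 UMIs were in the 28.0% of barcodes with a Dcn UMI, and in macrophage-like barcodes 93.0% were in 29.7%. In barcodes with no Dcn UMI endothelial C3 stood at 58.5 CPM in A20ZF7 and at 6.79 CPM in WT, the latter from 4 UMIs. In WT macrophage-like barcodes 56 of the 114 C3 UMIs were in barcodes with no Dcn UMI, and 1 of these barcodes held 42. Without that barcode the class stood at 185 CPM in place of 288 CPM.

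What remained in barcodes with no Dcn UMI differed by cluster. The Notch3 smooth muscle cluster kept Serping1 at 374 and 233 CPM (ratio 0.622, 0.528 to 0.731) and C1s1 at 285 and 136 CPM (ratio 0.476, 0.385 to 0.584). The endothelial cluster led by Selp and Madcam1, genes of venules that admit leukocytes, kept Serping1 at 188 and 309 CPM (ratio 1.64, 1.17 to 2.33) and C1s1 at 45.2 and 185 CPM (ratio 4.09, 2.20 to 8.30). C3 there was 29 UMIs in A20ZF7 (77.8 CPM) against 1 in WT. The smallest endothelial cluster, with 33 WT and 147 A20ZF7 barcodes in all, also held 29 C3 UMIs in A20ZF7 barcodes with no Dcn UMI (255 CPM), against 0 in WT. The Flt1 endothelial cluster kept Serping1 at 46.9 and 25.1 CPM, with an interval of the ratio of 0.257 to 1.15. In the other smooth muscle cluster Serping1 stood at 179 and 271 CPM (ratio 1.51, 0.9998 to 2.28). C1s1 stood there at 168 and 199 CPM (ratio 1.19, 0.751 to 1.87). The Serping1 and C1s1 ratios of the Notch3 cluster lay below 1 and those of the Selp cluster above 1, but that difference was not tested between samples. C3 in the Notch3 cluster was higher in A20ZF7, at 6.09 and 40.6 CPM (ratio 6.67, 3.23 to 15.1, from 10 and 35 UMIs). C4b was higher there too (ratio 1.98, 1.10 to 3.58). Over all smooth muscle-like barcodes with no Dcn UMI the C3 ratio was 7.36 (3.75 to 15.8). Over all barcodes of each class the marker sums had a ratio of 0.571 in smooth muscle and 0.534 in endothelium. These clusters were not split by WT mouse, so their spread between animals is not known.

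Other genes of the pathway were read from a list of 45, of which 16 had a mean of at least 50 CPM in 1 class and 29 did not. In smooth muscle-like barcodes 7 were tested and Itgb2 alone passed 2-fold upward, as did 7.18% of all genes tested. Its ratio of 2.65 stood beside 2.77 for the lymphocyte gene Ptprc and 3.78 for Cd3e in the same barcodes. Whether Itgb2 came from lymphocyte RNA was not tested. In fibroblast-like barcodes 9 of the 45 had enough counts, with a median ratio of 0.98 against 0.97 for all genes, and for the 5 members tested there 1.13. Of these 9 only Cfb (factor B of the alternative route) passed 2-fold upward, from 62.5 to 139 CPM (ratio 2.23, 2.01 to 2.48), as did 4.48% of all genes tested. C7, part of the membrane attack complex, stood at 161 and 133 CPM, Colec12, a scavenger collectin, at 183 and 144 CPM, and Cd55, a membrane inhibitor of the C3 convertase, at 189 and 203 CPM. The membrane inhibitor Cr1l was level within counting error, at 66.9 and 64.6 CPM (ratio 0.965, 0.863 to 1.08). The C1q-binding protein C1qbp stood at 38.5 and 47.5 CPM (ratio 1.23, 1.07 to 1.42).

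In macrophage-like barcodes 14 of the 45 were tested and only Itgam passed 2-fold upward, as did 3.45% of all genes tested. The receptors for the C3a and C5a fragments were lower in CPM together with the C1q chains, C3ar1 at 98.5 and 56.4 CPM (ratio 0.573, 0.391 to 0.854) and C5ar1 at 144 and 95.6 CPM (ratio 0.664, 0.488 to 0.915). The macrophage markers were lower by a like ratio, 0.639 for their sum. Properdin (Cfp), which steadies the alternative convertase, stood at 144 and 104 CPM. C6 stood at 101 and 83.1 CPM, and the integrin chains Itgax at 114 and 81.4 CPM and Itgb2 at 68.2 and 64.1 CPM, all with intervals of the ratio that included 1. Endothelial-like barcodes read less of Cd93 (250.4 and 124 CPM) and of Clu, which blocks the terminal complex (159.9 and 38.0 CPM, ratio 0.238, 0.176 to 0.319). Cd59a, the other terminal inhibitor, was highest in smooth muscle, at 123 and 99.7 CPM. Of the 10 genes tested in endothelium Clu, Cd59a and Cd93 passed 2-fold downward, where 5.5% of all genes did. Itgb2 passed upward (17.0 and 39.5 CPM, ratio 2.32, 1.28 to 4.55), where 5.53% did. In the same barcodes Ptprc had a ratio of 2.29 and Cd3e of 2.96. The endothelial markers were lower together, with a ratio of their sum of 0.534 beside 0.496 for Cd93.

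Over the 24 clusters with at least 20 barcodes in both libraries, the genes most like each member in log2 level were those of the same cell type. This likeness is a description across clusters that share libraries. For C1qa the highest Pearson correlations were with Klra2 (0.991), Clec4a2 (0.98997) and Pla2g2d (0.987), and for C1qb and C1qc Fcgr4 came first (0.992 and 0.985). For C3 they were Gsn (0.985), Fbln1 (0.983) and Mgp (0.982), for C4b Col3a1 (0.986), Spon2 (0.982) and Fmo2 (0.982), and for Serping1 Sparc (0.982), Bgn (0.978) and Col1a2 (0.976). C1s1 was nearest Rarres2 (0.985), Bgn (0.984) and Sod3 (0.982), and C1ra nearest Col1a2 (0.974), Bmp1 (0.971) and Col1a1 (0.965). C1qb was followed by Klra2 (0.9904) and Wfdc17 (0.985), and C1qc by Clec4a2 (0.983) and Pla2g2d (0.982).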

How the data were processed

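Lamina propria cells of 12-week-old WT and A20ZF7 mice were profiled by 5′ single-cell RNA-Seq with hashtags. The deposited files hold raw UMI counts per gene and barcode. Per the labels' processing notes, the authors used Cell Ranger 7.1, Seurat 4.3, R 4.3.3 and mm10. The headers of the gene expression counts name a later Cell Ranger version, so the version behind these counts is not settled. No deposited count had been normalized. The antibody files of the genotypes were identical in 3 of 3 files, so hashtags were used for WT only, to separate the mice and remove barcodes with both hashtags. Unfiltered, WT held 576003 barcodes and 35289432 UMIs and A20ZF7 612069 and 54587004.

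Barcodes with 200 to 2500 genes, at most 15% mitochondrial UMIs and at least 500 UMIs were kept and clustered in Seurat 5.3.0 (R 4.3.3), with cell cycle regressed, 2000 variable genes, 30 principal components and resolution 0.8. The complement genes were left out of the variable genes. Clusters were named from marker lists, with limits set after the clusters were seen. The gene lists of the libraries differed, with 1746 gene IDs in WT alone and 335 in A20ZF7 alone. CPM were taken over the 31950 shared gene IDs and compared as ratios with exact conditional 95% intervals. Shared IDs held 99.7% of WT and 96.6% of A20ZF7 UMIs. Effects of the differing gene lists on the ratios cannot be told apart from genotype. Poisson and Clopper-Pearson intervals were used for levels and shares. A gene was tested against a 2-fold limit if it had 20 UMIs and a mean of 20 CPM, and 0 was read as up to 3 UMIs. Genes of the wider list with a mean of 50 CPM in a class were named, except 1 that is not reported here, as were the 3 nearest genes per member. Scrublet (scanpy 1.11.5) set its own limit at which almost no barcode was marked, so a score of 0.25 was used as an alternative, which marked 1.73% of WT and 1.52% of A20ZF7 barcodes. Intervals were tested on simulated counts with counting error only and held the true ratio for 95.7% of genes in the fibroblast comparison. Spread between mice was not simulated. The member genes, lists and tests were chosen with earlier results of these data known. Alternatives covered the UMI threshold, resolution, cell cycle, doublets, depth, totals, background RNA, marker gates and each WT mouse.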

Additional observations from a re-analysis of the deposited data

Results flagged for a closer look

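The C1q chains differed between genotypes in opposite directions in fibroblast-like and macrophage-like barcodes. The A20ZF7-to-WT ratio was 1.90 and 0.704 for C1qa, 1.83 and 0.694 for C1qb, and 1.68 and 0.733 for C1qc. The difference between these ratios was not tested, and the fibroblast levels, at 4.32 to 13.5 CPM, were at the level of the lymphocyte barcodes.

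C1s1 was lower in A20ZF7 smooth muscle-like barcodes, with a ratio of 0.786, and higher in fibroblast-like (1.04), macrophage-like (1.76) and endothelial-like (2.28) barcodes. That difference was not tested either. In smooth muscle the direction turned per marker UMI of the class, to 1.38 (1.21 to 1.57), and against the WT mouse of hashtag 7, to 1.17.

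Cfd was read outside the 4 classes, where 3 A20ZF7 barcodes with 25 or more Cfd UMIs held 281 of them.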

How the results depend on the processing

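The ratio of the summed C1q chains in macrophage-like barcodes (0.709) turned to 1.11 with a gate on marker UMIs and to 1.11 per marker UMI. It moved to 0.603 at 1000 UMIs and 0.857 after thinning, and was 0.685 to 0.886 against each WT mouse. The fibroblast ratio of the summed C3, C4b, Cfd, Serping1, C1s1 and C1ra (1.32) was 1.55 without lymphocyte UMIs, 1.24 at 1000 UMIs, 1.28 with clusters weighted equally, 1.56 with the gate, 1.29 with the low-count level taken off, 1.345 without cell cycle regression, 1.27 and 1.29 at resolutions 0.4 and 1.6, 1.385 after thinning, 1.355 without mitochondrial, ribosomal and immunoglobulin genes, 1.06 without C3, 1.82 per marker UMI and 1.56 to 1.63 against each WT mouse. The smooth muscle sum (1.28) turned to 0.601 with fibroblast RNA taken off at the Dcn share and to 0.764 in barcodes with no Dcn UMI. It was 1.63 without lymphocyte UMIs, 1.68 at 1000 UMIs, 1.44 with the gate, 1.01 with the low-count level taken off, 1.59 with the mixed cluster, 1.58 at both resolutions, 2.24 per marker UMI and 1.41 to 1.58 against each WT mouse. The endothelial sum (2.27) was 3.02 without lymphocyte UMIs, 14.2 with fibroblast RNA taken off, 3.32 with the gate, 4.25 per marker UMI, 1.78 in barcodes with no Dcn UMI and 2.17 to 2.70 against each WT mouse. For the value of 0.601 the Dcn share gave 76.9 and 306 CPM of C3 in smooth muscle, against 41.9 and 241 read. The value of 14.2 rests on a small WT remainder in endothelium. In WT the Dcn share gave 148 CPM of C3 against 111 read, 115 of C4b against 104 and 96.9 of C1s1 against 86.5. It gave 245 CPM of Serping1 against 301 and 39.9 of C1ra against 53.7. Dcn was the highest fibroblast marker there, at 13.7%, and the lowest stood at 7.03%. The causes were not tested.

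Among single genes whose interval in the main setting excluded 1, 13 values turned direction. These were C1s1 in fibroblasts at 1000 UMIs (0.975), C1qa, C1qb and C1qc in macrophages with the gate (1.08, 1.10 and 1.16) and per marker UMI (1.10, 1.09 and 1.15), C3 in macrophages with the gate (0.413) and with no Dcn UMI (0.293), C1s1 in smooth muscle against the mouse of hashtag 7 (1.17, with 0.870 against that of hashtag 8) and per marker UMI (1.38), and C1ra with no Dcn UMI in endothelium (0.973) and macrophages (0.522). Of these, C3 in macrophages with no Dcn UMI rested on 56 WT UMIs, 42 of them in 1 barcode, and C1ra there on 4 and 7 UMIs. A further 133 values moved and 384 did not. Where the main interval included 1, values that crossed 1 were not counted as turned. Serping1, for instance, went from 1.04 to 0.691 in smooth muscle with no Dcn UMI. In fibroblasts it went from 1.02 to 0.983 at 1000 UMIs. C3 in fibroblasts stayed between 1.89 and 3.02. The alternatives per marker UMI, by Dcn, with the mixed cluster, by C1q subcluster, with equal weights and without C3 were chosen after seeing the data. No paired analysis was possible because each genotype is 1 library. Depth limits Cfd and the C1q chains outside macrophages.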
